A study of Mus musculus with 108 samples.

Results

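Newly active enhancer regions that appeared by 12 months of age in the map of the standard diet (SD) and not in that of caloric restriction (CR) were taken from 3 chromatin state maps of mouse liver. A region was chosen where a bin of 200 bp on an autosome was labelled state 8 (quiescent) in the 3-month SD group (SD 3m) and in the 12-month CR group (CR 12m), and state 3 or 4 (active enhancer) in the 12-month SD group (SD 12m), and adjacent bins were joined into stretches. This selection gave 60523 bins, which is 0.492% of the 12313718 autosomal bins, in 7676 stretches that cover 12.1 Mb. All members were selected on the labels of all 3 groups, so their own states are a description and carry no test. Of the 8122212 autosomal bins that were quiescent in SD 3m, 2.43% took an active enhancer state in SD 12m, and for CR 12m this share was 2.91%. The 60523 member bins are 30.7% of the 197069 bins gained in SD 12m.

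The livers came from C57BL/6 female mice and were fixed in formalin and embedded in paraffin, a treatment that all groups share. The SD 3m group held 8 mice on standard diet aged 3 months, the SD 12m group 8 mice on standard diet aged 12 months, and the CR 12m group 9 mice aged 12 months under 30% caloric restriction. For each group the study profiled H3K4me3, H3K27me3, H3K27ac and H3K4me1 by ChIP-seq, with 7, 7, 8 and 8 libraries in SD 3m, 8, 8, 7 and 6 in SD 12m, and 5, 6, 9 and 9 in CR 12m. The libraries of a group were merged before the states were assigned, so each group has 1 map, no value can be given per mouse, and no difference between groups could be set against the spread between mice. The number of reads behind each map is unknown. Whole liver is a mixture of cell types, and a state seen in fewer cells cannot be told apart from a weaker mark per cell. SD 6m mice were not analysed here.

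Enhancers are stretches of DNA that bind transcription factors and act on promoters at a distance. Nucleosomes at enhancers carry H3K4me1, and those at enhancers in use also carry H3K27ac, whereas Polycomb-repressed chromatin carries H3K27me3 and promoters carry H3K4me3. In the state model of the study, state 3 (active enhancer 1) has both H3K27ac and H3K4me1, state 4 (active enhancer 2) has H3K27ac with little H3K4me1, state 5 (poised enhancer) has H3K4me1, state 6 is Polycomb-repressed, state 7 is linked to repeats, and state 8 has none of the 4 marks. State 4 made up 60496 of the member bins (99.96%) and state 3 the other 27. The members are thus stretches with H3K27ac and little H3K4me1, and the name active enhancer is the one that the study gave to that state. The study also describes states 4 and 5 as weak and poised enhancer signatures. For bins that left state 8 in old mice, it reports a slight presence of H3K27ac, H3K4me3 or H3K27me3. How strong the mark was in a member cannot be read from a label.

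The labels were set against the transcription start sites (TSS) of known liver genes. All 19 listed hepatocyte markers, such as Alb and Apoa1, had their TSS in a state from 1 to 5 in each of the 3 groups. Of 31 transcription factor genes of other tissues, such as Pax6 and Neurod1, 4 had their TSS in such a state in SD 3m, 1 for SD 12m and 3 for CR 12m. Over the autosomes, states 3 and 4 together covered 16.6% of bins in SD 3m, 20.4% for SD 12m and 20.95% for CR 12m, and state 8 covered 66.0%, 51.8% and 62.1%.

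Sequence from the members is shown for the 3 longest stretches, to let the kind of DNA be seen. Each is a 200 bp bin of mm10, forward strand 5′ to 3′, the one nearest to the middle of the stretch with no repeat base and no exon. Capitals mark matches on either strand to the letters of 5 motifs, namely TGTTTAC (FOXA), TTGCNNAA (CEBP), CAAAGTCCA (HNF4A), GTTAATNAT (HNF1) and TGANTCA (AP-1). All 3 lie between genes, and none of the motifs is in these windows.
Wdr72 chr9:74448401-74448600: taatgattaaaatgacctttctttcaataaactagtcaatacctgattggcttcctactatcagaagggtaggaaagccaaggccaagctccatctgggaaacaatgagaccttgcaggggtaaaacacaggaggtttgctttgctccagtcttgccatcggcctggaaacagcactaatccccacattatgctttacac
Pdgfc chr3:81341201-81341400: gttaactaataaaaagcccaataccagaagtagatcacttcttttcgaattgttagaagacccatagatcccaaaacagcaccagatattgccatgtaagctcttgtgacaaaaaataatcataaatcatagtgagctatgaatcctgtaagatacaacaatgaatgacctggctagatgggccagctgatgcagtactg
Pdgfc chr3:81400801-81401000: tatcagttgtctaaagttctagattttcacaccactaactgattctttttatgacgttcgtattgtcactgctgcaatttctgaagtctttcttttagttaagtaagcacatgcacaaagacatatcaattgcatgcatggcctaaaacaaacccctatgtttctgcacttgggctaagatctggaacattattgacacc

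The 4 longest stretches whose nearest TSS lies within 2 kb are shown in the same way, since these members come near promoters. The windows come from near the middle of each stretch, so a match in them need not lie at the TSS. The Txndc2 window holds an AP-1 match, the 4930428G15Rik and Taar8b windows a CEBP match each, and the Gm26708 window a FOXA match.
Txndc2 chr17:65649201-65649400: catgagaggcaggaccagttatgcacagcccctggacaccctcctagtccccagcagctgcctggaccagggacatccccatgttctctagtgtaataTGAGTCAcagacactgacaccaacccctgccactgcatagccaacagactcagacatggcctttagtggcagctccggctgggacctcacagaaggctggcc
4930428G15Rik chr9:115340401-115340600: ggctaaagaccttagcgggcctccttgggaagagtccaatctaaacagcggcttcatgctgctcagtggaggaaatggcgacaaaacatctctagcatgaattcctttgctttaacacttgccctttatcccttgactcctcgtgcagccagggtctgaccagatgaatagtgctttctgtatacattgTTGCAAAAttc
Taar8b chr10:24092601-24092800: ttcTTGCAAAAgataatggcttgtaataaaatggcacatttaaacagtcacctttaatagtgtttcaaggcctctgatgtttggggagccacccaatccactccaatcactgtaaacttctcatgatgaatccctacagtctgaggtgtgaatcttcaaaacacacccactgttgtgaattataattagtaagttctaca
Gm26708 chr7:84231001-84231200: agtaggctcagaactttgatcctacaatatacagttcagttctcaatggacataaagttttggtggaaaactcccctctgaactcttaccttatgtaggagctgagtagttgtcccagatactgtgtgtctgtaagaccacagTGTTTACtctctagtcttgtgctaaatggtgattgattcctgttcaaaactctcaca

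The 3 longest stretches within 20 kb of a gene named from the gene lists lie at Tie1, Cry1 and Mcm3, the stretch of Axin2 being as long as that of Mcm3 (3800 bp) and not shown. Tie1 encodes an endothelial receptor tyrosine kinase, Cry1 a repressor of the circadian clock and Mcm3 a subunit of the DNA replication helicase. The Cry1 and Mcm3 windows hold a CEBP match each. The Tie1 and Mcm3 windows lie in introns of these genes and the Cry1 window lies upstream of the gene.
Tie1 chr4:118482401-118482600: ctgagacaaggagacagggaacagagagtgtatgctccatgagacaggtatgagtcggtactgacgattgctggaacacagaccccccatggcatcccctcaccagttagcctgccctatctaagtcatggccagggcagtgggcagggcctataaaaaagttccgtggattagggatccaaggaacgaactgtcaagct
Cry1 chr10:85198801-85199000: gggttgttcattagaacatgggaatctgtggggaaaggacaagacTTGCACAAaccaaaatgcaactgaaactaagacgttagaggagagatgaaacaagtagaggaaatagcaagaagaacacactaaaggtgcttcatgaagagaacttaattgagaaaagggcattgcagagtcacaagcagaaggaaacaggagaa
Mcm3 chr1:20816801-20817000: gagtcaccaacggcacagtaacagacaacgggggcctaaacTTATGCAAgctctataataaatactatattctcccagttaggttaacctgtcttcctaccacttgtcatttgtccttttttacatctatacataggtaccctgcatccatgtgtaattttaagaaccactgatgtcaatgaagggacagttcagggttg

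The letters of a motif occur often by composition alone, so each was counted in all bins. TGANTCA was in 6.07% of member bins, 5.96% of all autosomal bins and 6.08% of bins that were active enhancer in all 3 groups. TTGCNNAA was in 7.95%, 9.28% and 8.04% in the same order, and TGTTTAC in 2.64%, 2.98% and 2.99%. These 3 motifs were thus no more frequent in the members than in enhancers present at 3 months. CAAAGTCCA was in 0.263% of member bins, 0.257% of all bins and 0.300% of the enhancers present in all groups, and GTTAATNAT in 0.554%, 0.703% and 0.594%. CACGTG, the E-box bound by CLOCK and USF factors, was in 2.59% of member bins against 1.99% of all bins and 2.62% of those enhancers. Among all 26 motifs searched, the share in members divided by that in enhancers present in all groups ran from 0.659 for TTGCGCAA, a subset of TTGCNNAA that 8 member bins hold, to 1.16 for GCGCATGCG (NRF1), which 25 hold. The members carried the motifs about as often as the enhancers that the liver already had.

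The DNA of the members was of intermediate base composition. GC content was 44.5% in the members, 46.6% in bins gained in CR 12m only (quiescent in SD 3m and SD 12m), 47.8% in bins gained under both diets, 44.0% in enhancers of all 3 groups and 41.1% in bins quiescent in all 3. Across single stretches, the GC content of members was 44.4% at the median, with a standard deviation of 5.21 percentage points over 7674 stretches without unassembled bases and with 38.0% and 50.8% at the 10th and 90th percentiles. The differences in GC content between the sets were not tested. Repeats made up 27.3% of member bases, against 26.4% of the enhancers of all groups and 39.4% of bins quiescent in all groups. CpG dinucleotides numbered 9.95 per kb in members, 11.6 in gains of CR 12m only and 12.5 in gains under both diets. The part of GC content in the states was not tested.

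The stretches were short. The median length was 1000 bp, the middle 50% of stretches lay between 400 and 2200 bp, and 13.7% were a single bin. Stretches of at least 1 kb were 55.6% of the members, and 316 (4.12%) reached 5 kb. For comparison, stretches gained in CR 12m only had a median of 1600 bp, stretches gained under both diets 1600 bp, and stretches lost in SD 12m only (quiescent in SD 12m, with state 3 or 4 in the other groups) 1000 bp. Gains in CR 12m only were more numerous, with 102072 bins in 9988 stretches, as were gains under both diets, with 126550 bins in 12293 stretches. Losses in SD 12m only comprised 48203 bins in 6377 stretches. The members were 0.593 times the gains of CR 12m only in bins. These sets share the SD 3m map, and the counts were not tested against each other.

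**Figure D1:**
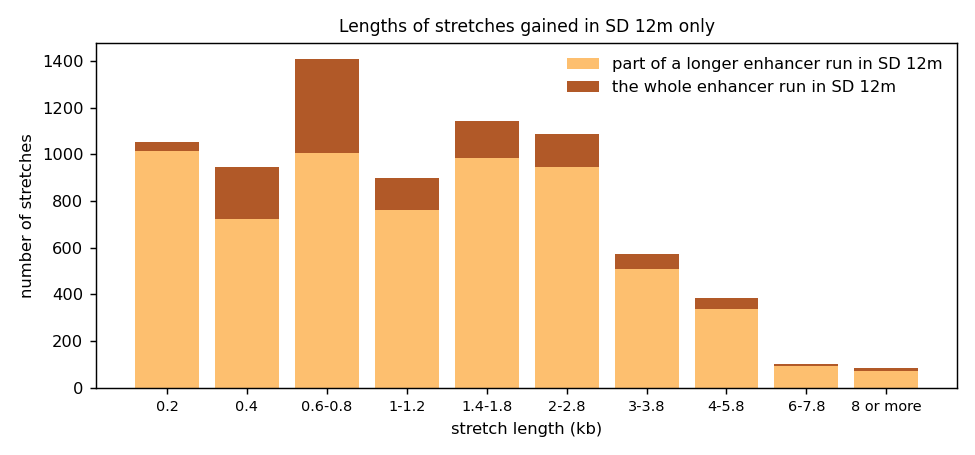
Number of stretches gained in SD 12m only (vertical axis) by length class in kb (horizontal axis), divided into those that form a whole active enhancer run in SD 12m (brown) and those that are part of a longer run (light orange). The class of 0.6 to 0.8 kb holds 1408 stretches, of which 404 are whole runs, and 83 stretches reach 8 kb.

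Most members were part of a longer enhancer run at 12 months. In SD 12m, 6447 stretches were part of a longer run of states 3 and 4, and these held 86.1% of the member bins. The run that held a stretch had a median length of 6600 bp, and member bins made up 26.1% of it at the median. The other 1229 stretches, 16.01% of the members (Wilson 95% interval 15.2% to 16.8%, over stretches), were whole runs by themselves. Whole runs had a median length of 800 bp and the longest was 16400 bp. Interval limits given here count stretches along the genome and not mice.

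In SD 3m, 51.8% of the stretches (Wilson 95% interval 50.7% to 52.9%) had state 3, 4 or 5 in the bin next to them on at least 1 side, and 6.53% on both sides. This share was 51.9% for gains of CR 12m only and 89.0% for gains under both diets. A bin in state 3, 4 or 5 in SD 3m lay within 1 kb of 66.5% of the members, and 113 stretches (1.47%) had none within 20 kb. State 3, the state with both enhancer marks, was farther off, with a median distance of 9.8 kb. This distance was 8.2 kb for gains of CR 12m only and 4.6 kb for gains under both diets. Active TSS (state 1) lay 38.8 kb away at the median. In SD 3m, state 3 bordered 0.026% of members, 0.020% of gains of CR 12m only and 0.065% of gains under both diets. The near absence of state 3 at the edge was thus shared by all gained sets.

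The bins next to the members were compared in the same way. Of the flanking bins, 45.5% were quiescent in all 3 groups, 16.4% were quiescent in SD 3m and state 4 in both groups of 12 months, and 15.9% were state 4 in SD 3m and SD 12m and quiescent in CR 12m. A further 8.40% were poised enhancer at 3 months, turned to state 4 in SD 12m and were quiescent in CR 12m. Flanking bins in state 4 in all groups were 2.06%, whereas they were 38.0% around gains under both diets. Among the 2876 flanking bins in state 4 in SD 3m, 86.3% were quiescent in CR 12m and 1.63% in SD 12m. Of all 31863 autosomal bins in state 4 that bordered state 8 in SD 3m, 44.0% were quiescent in CR 12m and 48.1% in SD 12m. Among the 1599 flanking bins in state 5, the shares quiescent were 82.4% in CR 12m and 0.813% in SD 12m. Around gains of CR 12m only the picture was turned about, with 80.6% of the flanking bins in state 4 quiescent in SD 12m and 0.805% in CR 12m. Each flanking bin borders a member that was chosen as active enhancer in SD 12m and quiescent in CR 12m. The shares next to members therefore follow in part from the rule and are no result on diet. The state model reads neighbouring bins together, so the state of a flanking bin is not independent of the rule.

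Farther out the groups drew together. At the edge, 18.7% of bins were in state 3 or 4 in SD 3m, 52.7% for SD 12m and 19.9% for CR 12m. At 5.1 kb these shares were 25.9%, 45.2% and 33.3%, and at 9.9 kb they were 28.7%, 46.6% and 36.9%. SD 12m remained the highest and SD 3m the lowest at 9.9 kb, and all 3 were above the autosomal average of their own map. Poised enhancer bins were 14.9% at 9.9 kb in SD 3m, against 4.76% in SD 12m and 7.26% in CR 12m. Polycomb bins were rare next to members, with 1.93% of edge bins in SD 3m, 0.482% for SD 12m and 0.358% for CR 12m.

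**Figure D2:**
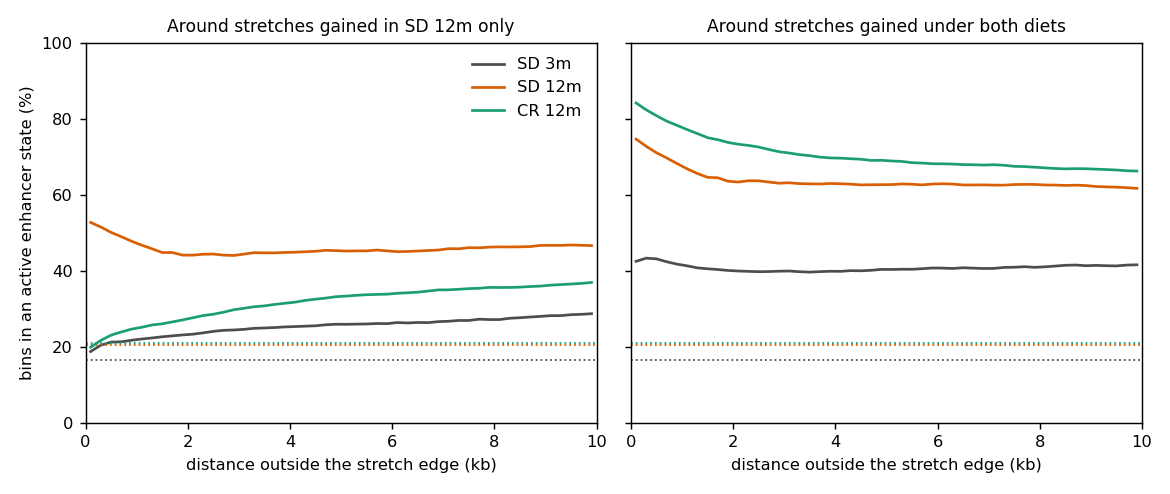
Share of bins in state 3 or 4 (vertical axis, %) by distance outside the edge of a stretch (horizontal axis, kb) in SD 3m, SD 12m and CR 12m, around stretches gained in SD 12m only (left) and under both diets (right). Solid lines are means over both sides of all stretches and dotted lines the average of all autosomal bins. Around members, SD 12m falls from 52.7% at the edge to 45.2% at 5.1 kb while CR 12m goes from 19.9% to 33.3%.

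Bins just outside the rule were counted. A further 8221 bins were quiescent in SD 3m, active enhancer in SD 12m and poised enhancer in CR 12m, 6119 were quiescent in SD 3m and CR 12m and poised in SD 12m, and 29092 were poised in SD 3m, active in SD 12m and quiescent in CR 12m. The last class, poised in SD 3m and active in SD 12m, was the largest of these in number. The counts start from states of unlike size, as state 5 covered 5.61% of autosomal bins in SD 3m and state 8 covered 66.0%. The same class with the diets exchanged was not counted, so the number is no result on diet.

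The members lay mostly away from promoters. Bins within 2 kb of a TSS were 2.69% of the member bins, against 3.91% of gains in CR 12m only, 4.64% of gains under both diets and 3.85% of all autosomal bins. Intergenic bins farther than 2 kb from a TSS made up 51.4% of the members, against 34.5% of gains in CR 12m only, 37.1% of gains under both diets and 32.2% of the enhancers of all groups. Exons held 6.64% of member bins, against 13.7% and 15.4% of the other gains. By these shares, the members were the gained set that lay most between genes. Quiescent bins of SD 3m, from which all gains come, were 66.7% intergenic, 1.75% within 2 kb of a TSS and 2.58% in exons. Beside that pool, members thus lay nearer to promoters and more often in exons. The median distance to a TSS was 103 kb in the pool, 30.5 kb for members and 23.0 kb for gains of CR 12m only. None of these differences could be tested.

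By stretch, the nearest TSS was within 2 kb for 339 (4.42%), from 2 to 10 kb away for 1513, from 10 to 50 kb away for 3398 and farther than 50 kb for 2426 (31.6%). By the direction of transcription, 4154 stretches lay downstream of the nearest TSS and 3441 upstream. Protein-coding genes were nearest to 76.0% of the stretches and long non-coding RNA genes to 18.9%, while they make up 80.2% and 12.9% of the autosomal genes. The TSS of 83 genes lay in a member bin itself, of which 52 are protein-coding. Among these was Taar8b, a trace amine receptor gene, within a stretch of 9800 bp, and next to it Taar8a, whose TSS lies 1501 bp from another stretch of 6400 bp in the same run of 19800 bp. Cdsn, a gene of the cornified skin, had its TSS in a stretch of 8200 bp.

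The members lay in a minority of windows. Of 24620 windows of 100 kb, 4096 (16.6%) held a member bin, and 204 held at least 50. The median distance from a stretch to the nearest other stretch was 11.6 kb, and 46.6% had another within 10 kb. Gains of CR 12m only lay closer together, at 8.4 kb and 53.2%, as did gains under both diets, at 7.4 kb and 56.3%. Assigned to the nearest TSS, the stretches fell to 4010 of 24963 autosomal genes (16.1%), of which 2364 had a single stretch and 265 had 5 or more. The 500 genes with the most member bins held 49.1% of them. Gains of CR 12m only were assigned to 21.4% of the genes and gains under both diets to 25.9%. Genes with a stretch had a median length of 24.8 kb, against 13.6 kb for all genes, and long genes have more room for a nearest stretch. The TSS of genes with a stretch was in state 8 for 18.5% in SD 3m, 16.5% for SD 12m and 20.2% for CR 12m, while for all genes it was 28.4%, 22.3% and 26.5%.

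Pdgfc, which encodes a ligand of the platelet-derived growth factor receptors, had the most member bins. It was assigned 415 bins in 15 stretches, with no bin gained in CR 12m only and 17 gained under both diets. Its TSS was in state 4 in all 3 groups. The longest of its stretches, chr3:81333601-81350000, lay 297 kb downstream of the TSS and was a whole run of 16400 bp, with no state 3 or 4 bin within 10 kb in SD 3m or CR 12m. The next, chr3:81393401-81408200, covered 14800 bp within a run of 42800 bp. The window of 100 kb that holds the former, chr3:81300001-81400000, had 0% of bins in states 3 and 4 in SD 3m, 55.2% for SD 12m and 1% for CR 12m. That window held 223 member bins (44.6%), which the rule fixed as quiescent in SD 3m and CR 12m and active in SD 12m. Its contrast between groups thus follows in large part from the selection. The same holds for the other windows named below, which were picked for their member bins.

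Wdr72, a gene known for its part in tooth enamel, was nearest to the longest stretch of all. The stretch chr9:74438801-74459400 covered 20600 bp, 328 kb downstream of the TSS and in no gene. It lay in a run of states 3 and 4 of 81400 bp in SD 12m, of which 46.2% were member bins. In the 10 kb on each side, states 3 and 4 made up 9% of bins in SD 3m, 92% for SD 12m and 20% for CR 12m. The window chr9:74400001-74500000 held 228 member bins, the most of any, and 28.8%, 89% and 35.6% of it were in states 3 and 4 in the 3 groups. The TSS of Wdr72 was in the Polycomb state in SD 3m and SD 12m and quiescent in CR 12m, so the nearest TSS had no active state in any group.

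Jag1, which encodes a Notch ligand required for bile ducts, was assigned 259 bins in 27 stretches, the longest of 46 bins. Adamts9, which encodes a secreted protease of the extracellular matrix, was also assigned 259 bins, in 21 stretches, with no gain in CR 12m only and none under both diets. The longest stretch of Adamts9 covered 12200 bp, 272467 bp upstream of its TSS. Both genes had their TSS in state 1 in SD 3m and SD 12m, and in CR 12m Jag1 was in state 1 and Adamts9 in state 4. The stretches of these genes were many and scattered rather than joined in a block.

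**Figure D3:**
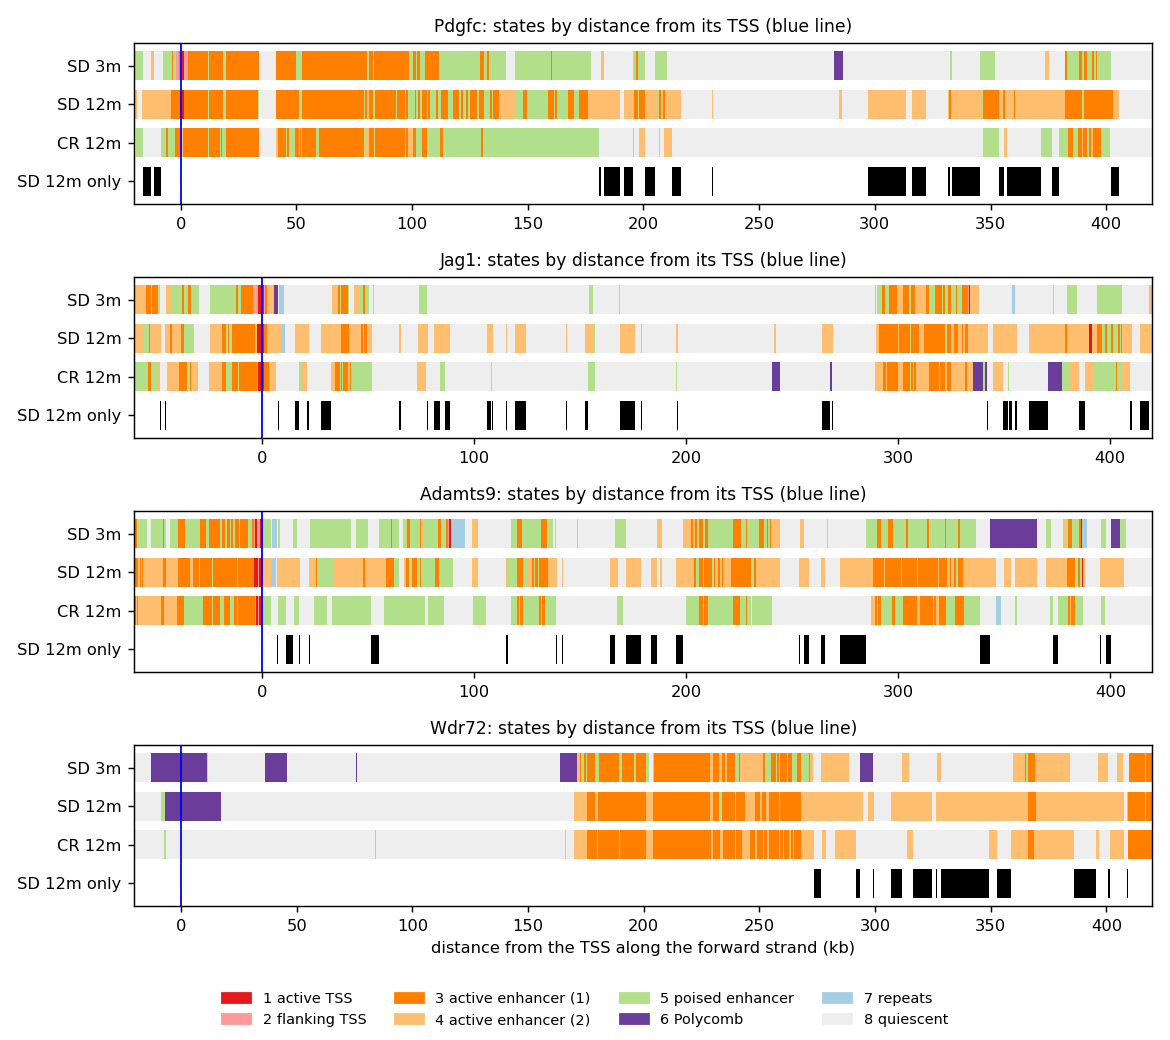
States of the 3 groups and the stretches gained in SD 12m only (black) by distance from the TSS (horizontal axis, kb along the forward strand, blue line at the TSS) of Pdgfc, Jag1, Adamts9 and Wdr72, with state colours in the key. At Pdgfc a black block of 16400 bp begins 297 kb from the TSS where SD 3m and CR 12m are grey (quiescent), and at Wdr72 a run of 81400 bp in SD 12m holds the longest stretch, of 20600 bp.

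The other genes with the most member bins were Tab2 with 255, the non-coding Gm36480 with 237, Angpt1 with 229, and the non-coding BC006965, 1700012I11Rik and A730004F24Rik with 216, 216 and 199. Tab2 encodes an adaptor of inflammatory signalling, and its TSS was in state 7 in SD 3m and SD 12m and in state 4 in CR 12m. Angpt1 encodes a ligand of the endothelial receptor Tek, and also had 187 bins gained under both diets and 14 gained in CR 12m only. The gains at 1700012I11Rik lay in a window of chromosome 15 with 27.2% of bins in states 3 and 4 in SD 3m, 78.4% for SD 12m and 11.2% for CR 12m. BC006965 lies beside Sox9, a transcription factor gene of bile duct cells that was itself assigned 34 member bins. The TSS of Sox9 was in state 7 in SD 3m, state 4 for SD 12m and state 1 for CR 12m.

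Further long stretches lay at genes of varied roles. Upstream of the non-coding Gm7550, a stretch of 14200 bp had 29% of bins within 10 kb in states 3 and 4 in SD 3m, 85% for SD 12m and 93% for CR 12m. There the surroundings were active under both diets, and the stretch is a quiescent gap under restriction. Upstream of Asz1, a germ cell gene, a stretch of 13400 bp was a whole run, and the nearest bin in state 3, 4 or 5 was 4400 bp away in SD 3m and 179600 bp away in CR 12m. The Asz1 TSS was quiescent in all groups. The stretch of 13200 bp nearest to Pyroxd1, which encodes an oxidoreductase, ran through exons and introns of Pyroxd1 and Recql, a DNA helicase gene, with 3819 bases in exons. In the intergenic DNA near Cwc27, a splicing factor gene, a stretch of 13000 bp had 35% of nearby bins in states 3 and 4 in SD 3m, 83% for SD 12m and 23% for CR 12m. That locus lies in a window shared with Adamts6 in which 35.4% of bins were members.

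Avpr1a, which encodes a vasopressin receptor of hepatocytes, had a stretch of 12800 bp 106 kb upstream, and its TSS was quiescent in SD 3m and state 1 in SD 12m and CR 12m. Near Pdgfa, another ligand of the platelet-derived growth factor receptors, a stretch of 12400 bp had 9% of nearby bins in states 3 and 4 in SD 3m, 100% for SD 12m and 0% for CR 12m. Quiescent bins were 4%, 0% and 75% of these surroundings in the same order, so most held some other state in SD 3m. A stretch of 13800 bp in an intron of Ccdc192, nearest to the non-coding 2210409D07Rik, had 0%, 56% and 0% of nearby bins in states 3 and 4. Around it 47%, 44% and 100% were quiescent. Ddit4l, which encodes an inhibitor of mTOR signalling, and its neighbour Gm4861 were assigned 179 and 150 bins. The window chr3:137500001-137600000, which holds Gm4861 and stretches nearest to either gene, had 0% of bins in states 3 and 4 in SD 3m, 45.2% for SD 12m and 3.6% for CR 12m. Of the 10 longest stretches, those of Gm7550 and Pyroxd1 had over 50% of the bins around them in states 3 and 4 in CR 12m, and the other 8 had 30% or less.

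Among 23 gene lists, the share of genes with a member ran from 0% for fatty acid oxidation to 35.7% for cholangiocyte markers. None of 33 genes of fatty acid oxidation and ketogenesis was assigned a member (Wilson 95% interval 0% to 10.4%, over genes), 3 of 40 secreted plasma proteins (7.5%) and 3 of 36 genes of fatty acid and sterol synthesis (8.33%) were, and 2 of 19 hepatocyte markers (10.5%). Beside these, 16.1% of all autosomal genes were, a share that lies within the Wilson intervals of the 3 last lists (2.58% to 19.9%, 2.87% to 21.8% and 2.94% to 31.4%). Gains of CR 12m only were assigned to 11 of the 33, 14 of the 40, 16 of the 36 and 11 of the 19, beside 21.4% of all autosomal genes. Gains under both diets were assigned to 11, 12, 12 and 11 genes of these lists, beside 25.9% of all autosomal genes. The median member count of every list was 0 bins, as it was for all genes, and the numbers of genes are small. No list was tested. The intervals count genes within 1 map per group, for lists chosen with earlier results known, and are no test of any of the 23.

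The members at hepatocyte genes were named by their number of bins. Apob, the main protein of secreted lipoproteins, had 25 member bins in 2 stretches, the longer of 4000 bp and 75924 bp downstream. Fgg, a fibrinogen chain, had 3 bins and Serpina1a, an alpha-1 antitrypsin, 2 bins. In sterol metabolism, Insig2, which retains SREBP in the endoplasmic reticulum, had 3 bins and the fatty acid elongase gene Elovl5 had 1. In glucose and amino acid metabolism 3 of 31 genes had a member (9.68%), beside 16.1% of all autosomal genes. The 3 included Fah, an enzyme of tyrosine breakdown, with 2 bins.

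Of 20 hepatocyte transcription factors, 3 had a member (15%), namely Nr5a2 with 16 bins, Foxa2 with 10 and Foxa1 with 5, and every stretch of these lay over 50 kb from the TSS. Gains of CR 12m only were assigned to 7 of the 20. Among 64 cytochrome P450 genes, 12 had a member (18.8%) and 38 had a gain of CR 12m only (59.4%). Among all autosomal genes these shares were 16.1% and 21.4%. With stretches of at least 1 kb alone, 4 of the 64 had a member (6.25%), beside 10.3% of all genes. The P450 genes with the most bins were Cyp26c1 with 49 and Cyp26a1 with 26, which encode the enzymes that degrade retinoic acid, and Cyp7b1, an oxysterol hydroxylase, with 6. The longest stretch of Cyp26c1, 6800 bp, lay in the neighbouring gene Exoc6. Among zonation genes 3 of 26 had a member, with 26 bins at Axin2, a target of Wnt signalling, and 1 bin at Znrf3. Among antioxidant and conjugation genes 4 of 34 had a member, Ugt2b5 with 10 bins, Ugt2b34 with 3 and Srxn1 with 2 being those with the most. The Ugt2b genes lie in a cluster of near-identical copies, where reads can map to more than 1 place.

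Of 22 circadian clock genes 5 had a member (22.7%) and 9 a gain of CR 12m only (40.9%). Among all autosomal genes these shares were 16.1% and 21.4%, and the Wilson interval for members of the list was 10.1% to 43.4%, over genes. Nfil3, a repressor at D-box elements, had 47 member bins beside 64 gained in CR 12m only and 104 gained under both diets. Cry1 and the activator gene Npas2 had 37 member bins each and no gain of the other 2 kinds. Both stretches of Cry1 were whole runs in SD 12m, of 5200 bp and 2200 bp, and the nearer began 10347 bp upstream of the TSS. At Npas2 the TSS was in state 5 in SD 3m and CR 12m and in state 1 in SD 12m.

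Of 26 genes of senescence, p53 and CDK inhibitors, 6 had a member (23.1%) and 2 a gain of CR 12m only (7.69%). These shares were 16.1% and 21.4% among all autosomal genes. With assignment within 50 kb, 3 of the 26 had a member (11.5%), beside 13.6% of all genes. Gadd45g, a stress-induced regulator of growth arrest, had 77 bins in 5 stretches, from 7475 bp upstream to 109526 bp downstream. Cdkn2b, which encodes the inhibitor p15, had 34 bins in 3 stretches, all over 100 kb upstream, and Lmnb1, which encodes lamin B1, had 23. The TSS of these 3 genes was in state 1 in all groups. Of 36 cell cycle genes 8 had a member (22.2%), with 20 bins at Myc, 19 at Mcm3 and 13 at E2f7, a repressor of the cycle. Of 32 genes of the growth hormone, IGF and insulin axis 6 had a member (18.8%), with 16 bins at Igfbp5, 11 at Foxo3 and 10 at Igf1. The share for gains of CR 12m only was 27.8% for cell cycle genes and 21.9% for this axis. The 16.1% of all genes with a member lies within the Wilson intervals of all 3 lists. Those of the last 2 lists were 11.7% to 38.1% and 8.89% to 35.3%.

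Of 27 nuclear receptors 5 had a member (18.5%), with 30 bins at Nr2f2, 11 at the glucocorticoid receptor gene Nr3c1 and 7 at Esrrg, which had 296 bins gained in CR 12m only. Of 46 interferon and inflammatory genes 8 had a member (17.4%), and 1 did once stretches with state 3, 4 or 5 within 1 kb in SD 3m were left out, beside 7.33% of all genes. With all stretches, 16.1% of all autosomal genes had a member. That share lies within the Wilson intervals of the nuclear receptor (8.18% to 36.7%) and interferon (9.09% to 30.7%) lists. Mx1, an interferon-induced gene annotated as a pseudogene in this strain's reference, had 25 bins, the chemokine gene Ccl5 had 21 and the macrophage and B cell factor gene Irf8 had 18. The Ccl5 TSS was quiescent in SD 3m and in state 4 in SD 12m and CR 12m. Of 28 autophagy and lysosome genes 2 had a member (7.14%), Foxo3 and Atg7, the latter with 4 bins. Igf2bp2, an RNA-binding protein gene of the fetal liver, was the single fetal gene of 19 with a member, with 44 bins. Among the transcription factor genes of other tissues, 2 of 31 had a member, Barhl1 with 17 bins and Neurod1 with 2.

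Markers of the other liver cell types were counted because a change in cell mixture would alter the maps. For cholangiocytes, the bile duct cells, 5 of 14 markers had a member (35.7%), with 34 bins at Sox9, 24 at Pkhd1 and 14 at Cftr, and 2 had a gain of CR 12m only. For sinusoidal endothelium 5 of 19 had a member (26.3%), with 32 bins at Tie1, 25 at Cdh5 and 5 at Tek, and 5 had a gain of CR 12m only. This count was 3 with stretches of at least 400 bp or 1 kb and 0 without stretches that had state 3, 4 or 5 within 1 kb in SD 3m. Among all autosomal genes, 16.1% had a member and 21.4% a gain of CR 12m only. For stellate cells 2 of 17 had a member (11.8%), Rgs5 with 38 bins and Acta2 with 9, and none had a gain of CR 12m only. For macrophages 2 of 17 had a member, Csf1r with 21 bins and Lyz2 with 2, and for lymphocytes and neutrophils Klrb1c alone of 21, with 5 bins. The TSS of endothelial markers was in a state from 1 to 5 for 12 of 19 in SD 3m, 14 for SD 12m and 16 for CR 12m, that of cholangiocyte markers for 9, 10 and 11 of 14, that of stellate cell markers for 8, 7 and 6 of 17, that of macrophage markers for 8, 8 and 7 of 17, and that of lymphocyte and neutrophil markers for 5, 5 and 4 of 21. Of the 17 macrophage markers, 8, among them Clec4f, C1qa and Cd163, had no bin in states 1 to 5 within 2 kb of the TSS in any group, and 6, among them Csf1r, Cd68 and Spi1, had all bins there in these states in every group. The part of cell mixture in the members was not tested.

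**Figure D4:**
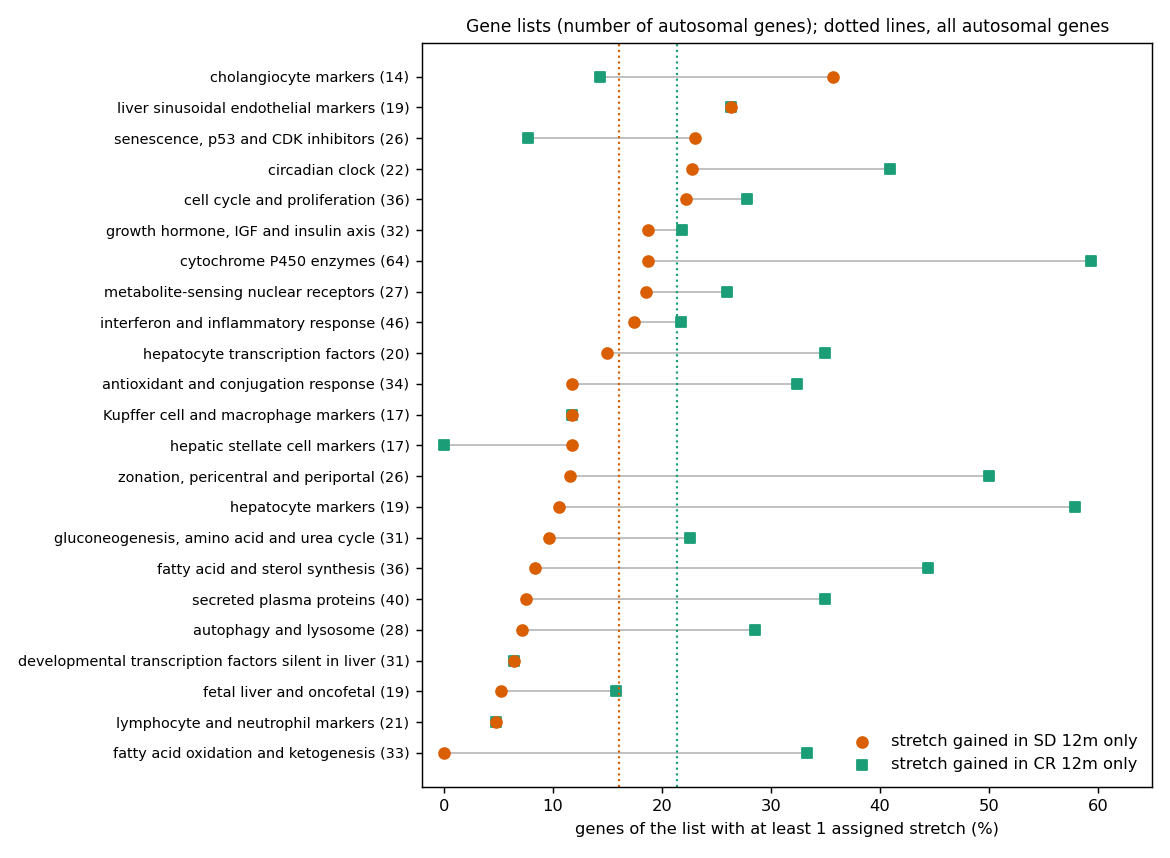
Share of the genes of each list (vertical axis, with the number of autosomal genes) that were assigned at least 1 stretch gained in SD 12m only (circles) or in CR 12m only (squares), in % (horizontal axis), with dotted lines for all autosomal genes (16.1% and 21.4%). The P450 enzymes lie at 18.8% and 59.4% and the cholangiocyte markers at 35.7% and 14.3%.

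The members were unevenly spread over the chromosomes. They made up 0.322% of the bins of chromosome 14 and 0.820% of those of chromosome 10, the lowest and highest shares. Chromosome 3 held 4892 member bins against 2995 gained in CR 12m only, and chromosome 10 held 5358 against 4190, while on each of the other 17 autosomes the gains of CR 12m only were more. On chromosome 7 they were 9628 against 2772 members, a ratio of 0.288. Enhancers of all groups were most common on chromosome 11, at 22.6% of bins, where members were 0.532%, and they were 13.9% of chromosome 10. The order of the chromosomes was thus not that of their enhancer content. On 15 of 19 autosomes more bins were gained in SD 12m only than were lost in SD 12m only.

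**Figure D5:**
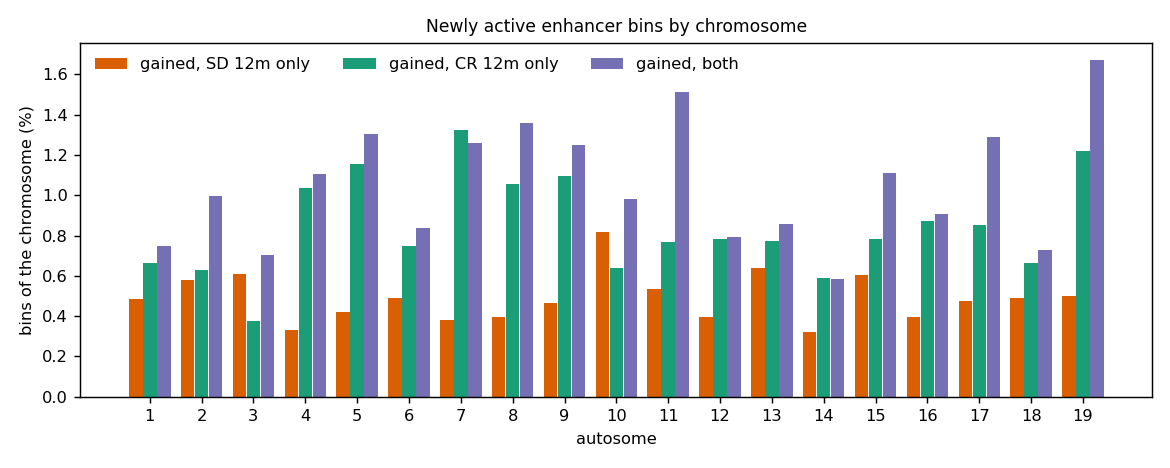
Share of the bins of each autosome (vertical axis, %) that were gained in SD 12m only (orange), in CR 12m only (green) or under both diets (purple). Gains of SD 12m only exceed those of CR 12m only on chromosomes 3 and 10, where they are 1.63 and 1.28 times as many.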

How the data were processed

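The authors aligned the ChIP-seq reads to mm10 with BWA 0.6.2-r126 and handled them with SAMtools 0.1.18 (versions from the submitters' processing notes), merged libraries per group and mark, and trained a ChromHMM model with 8 states. They deposited, for each group, the state label of every 200 bp bin on 20 chromosomes. The label is a category and no signal, and the depth behind it is unknown. From the deposited labels, members and comparison sets were found by rule in Python 3.11.15 with numpy 2.4.6, and figures were drawn in matplotlib 3.10.9. In all 20 chromosomes the bins covered the whole bins of GRCm38.p6, the assembly of mm10. Genes, exons and TSS came from RefSeq for that assembly, with 1 TSS a gene (the longest curated transcript), and repeats were its lower-case bases. The functions were tested on simulated data, and 1381 of 1381 planted stretches were recovered. The members and gene lists were chosen with earlier results of these data known. Named genes were those at the 10 longest stretches, the 10 with the most member bins, those of the 5 windows of 100 kb with the most, and up to 3 for each list, of which some are not reported here. No test between groups was possible, since each group has 1 map. Wilson 95% intervals count stretches, or genes for the gene lists. The alternatives were stretches of at least 400 bp or 1 kb, no enhancer state within 1 kb in SD 3m, quiescent neighbours, state 5 counted, gaps of 1 bin bridged, assembled bins beyond the first 3 Mb, all curated TSS, and assignment within 50 kb.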

Additional observations from a re-analysis of the deposited data

Results flagged for a closer look

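Chromosome X was outside the autosomal rule. On it, 246 bins in 36 stretches were quiescent in SD 3m and CR 12m and active enhancer in SD 12m, which is 0.0288% of its bins and below the share of every autosome. Gains on chromosome X numbered 2159 bins in CR 12m only and 970 under both diets. The values stand here because these data were used in no comparison above, and they have no replicate check.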

How the results depend on the processing

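Without stretches that had state 3, 4 or 5 within 1 kb in SD 3m, 18920 bins in 2572 stretches were left, with 26.2% repeats and 7.33% of genes. Stretches of at least 1 kb numbered 4271, of which 55.0% bordered an enhancer state in SD 3m, and fell to 10.3% of genes. With state 5 counted, 90.8% of bins were in state 4 and 18.4% of genes had a member. With quiescent neighbours required, no stretch can border an enhancer state (0%), and 14.3% of genes had a member. Stretches of at least 400 bp fell to 14.4% of genes, and assignment within 50 kb to 13.6%. The lower gene shares follow from keeping fewer bins or, within 50 kb, fewer assignments. The other 52 values stayed within 1.5 times the count or within the Wilson interval of the share, and the ratio to gains of CR 12m only lay between 0.542 and 0.593. For GC content, repeats and shares of bins, that interval was computed with the number of stretches. It serves there as a yardstick and does not measure their spread. Of the 23 gene lists, 7 changed side of the share over all genes when stretches with an enhancer state nearby were left out: interferon genes (1 of 46), the growth hormone axis (2 of 32) and endothelial markers (0 of 19) fell below it, and sterol synthesis (3 of 36), stellate cell (2 of 17), zonation (2 of 26) and antioxidant (4 of 34) lists rose above it. With stretches of at least 1 kb 3 lists did, P450 genes (4 of 64) falling below. Assignment within 50 kb moved 4 lists below, nuclear receptors (2 of 27), the growth hormone axis (3 of 32), interferon genes (6 of 46) and senescence genes (3 of 26), and at most 2 moved under each other alternative. Genes of fatty acid oxidation had no member under any alternative, though alternatives that only drop stretches or assignments could not have given one. Depth is unknown, and leaving out a mouse was not possible as a map pools its group. No paired analysis was possible because each group has 1 map.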
